A study of Mus musculus with 8 samples.

Results

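Collagen genes were taken as the RefSeq protein-coding genes on chromosomes 1 to 19 of the mouse build GRCm38 whose symbol is Col, a number, the letter a and a number. The rule found 42 genes among 20665 autosomal protein-coding genes. Methylation was measured with RRBS (reduced representation bisulfite sequencing), an assay of CpG-rich restriction fragments, in organoids grown in Matrigel from the proximal colon of male mice about 40 days old with 1 BrafV600E allele that Cre can switch on (Braf+/LSL). This oncogene encodes a BRAF kinase that signals without its normal input. The 8 libraries form 4 groups of 2, with organoid lines 1 and 3 in each. In the first group lentiviral Cre had activated BrafV600E, and the organoids, after 5 months, were selected for growth in Base medium, a medium lacking stem-cell niche factors; in the second the same uninduced allele was carried with the empty lentiviral backbone (EV) in full medium, which holds Wnt3a, R-Spondin, Noggin and EGF, at 5 months. The other groups are EV organoids in full medium after 12 months (line 1) or 14 months (line 3), and EV organoids in full medium after 2 months. All were grown for a final 3 weeks. The oncogene and the change of medium come together in the first comparison and cannot be told apart. The study calls the long-cultured lines biological replicates, but the labels tie neither line to an animal. Differences between lines therefore measure the spread between these cultures and cannot be read as a spread between animals. In the long-culture comparison line 1 was at 12 months and line 3 at 14, so line and culture time cannot be told apart there.

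The values are the authors' own comparisons within each line, of 1 library against 1 library, over tiles of 200 bp. A tile is listed only past 2 limits, a methylation difference of 20 percentage points or more and a q-value up to 0.01. A gain means higher methylation in the BrafV600E or long-cultured library. The tables hold no methylation level and no read count, so depth is unknown, and a tile that a table lacks was either under these limits or not read. With only 2 lines an exact sign-flip permutation test cannot go below p = 0.5, so no test was made and the lines are given side by side. The line 1 BrafV600E library names line 3 in its source field and the 14-month library is tagged 2 months in another; the titles, which the descriptions match for the 14-month library, were followed, and counts of called genes are given for each line alone too. The tissue label could not be checked against marker genes and Braf recombination could not be checked, since the tables hold methylation differences only.

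Collagens are the triple-helical proteins of the extracellular matrix. Fibrillar collagens such as types I, II, III, V and XI form the cables of connective tissue and cartilage, type IV forms the sheet of the basement membrane under epithelia, and type VI forms beaded filaments. FACITs (fibril-associated collagens) decorate fibrils, transmembrane collagens sit on the cell surface, and multiplexins lie in basement membranes. In the gut wall most fibrillar collagen is made by mesenchymal cells, whereas epithelial cells themselves make some members, including Col17a1 of the hemidesmosome and Col7a1 of the anchoring fibril. CpG-dense promoters are usually unmethylated in normal tissue, and gene bodies are usually methylated.

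The RefSeq table of GRCm38.p6 gave a promoter window, from 250 bases before to 50 bases after a transcript start, for 33 of the 42 genes. Tiles fell in that window in at least 1 table for 12 of the 33 genes (36.4%), against 14.2% of the 16457 autosomal protein-coding genes with a window. The collagen windows held a median of 12 CpGs, against 7 over all 32851 windows of that table. Because the assay reads CpG-rich fragments, more collagen windows may have been read at all, which was not tested. The windows of 6 genes follow, 5′ to 3′ on the gene's own strand, with each CpG in capitals. Col13a1 is shown as the only member with 1 promoter tile listed in both lines of a comparison; Col25a1, Col24a1 and Col1a2 for promoter tiles in line 3; and Col4a1 and Col3a1 as windows with many CpGs and with none and no listed tile. These last 5 were chosen after their values were seen.
Col13a1: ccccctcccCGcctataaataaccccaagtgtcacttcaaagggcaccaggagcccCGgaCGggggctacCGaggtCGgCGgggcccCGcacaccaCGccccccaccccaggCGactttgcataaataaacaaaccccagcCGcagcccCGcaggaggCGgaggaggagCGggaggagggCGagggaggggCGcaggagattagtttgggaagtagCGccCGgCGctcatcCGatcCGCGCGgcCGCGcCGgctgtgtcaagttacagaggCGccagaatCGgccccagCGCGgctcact
Col25a1: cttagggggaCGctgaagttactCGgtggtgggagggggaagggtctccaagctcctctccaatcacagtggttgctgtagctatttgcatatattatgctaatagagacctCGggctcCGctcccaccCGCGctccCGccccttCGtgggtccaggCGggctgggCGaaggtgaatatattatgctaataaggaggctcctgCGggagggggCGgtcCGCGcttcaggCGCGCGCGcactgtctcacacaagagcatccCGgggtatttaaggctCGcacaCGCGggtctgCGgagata
Col24a1: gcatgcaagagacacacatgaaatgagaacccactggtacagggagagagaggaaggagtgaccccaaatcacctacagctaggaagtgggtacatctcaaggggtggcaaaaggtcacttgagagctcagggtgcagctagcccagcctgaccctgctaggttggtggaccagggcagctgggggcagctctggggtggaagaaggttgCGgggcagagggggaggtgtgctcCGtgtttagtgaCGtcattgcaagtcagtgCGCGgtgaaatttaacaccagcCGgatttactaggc
Col1a2: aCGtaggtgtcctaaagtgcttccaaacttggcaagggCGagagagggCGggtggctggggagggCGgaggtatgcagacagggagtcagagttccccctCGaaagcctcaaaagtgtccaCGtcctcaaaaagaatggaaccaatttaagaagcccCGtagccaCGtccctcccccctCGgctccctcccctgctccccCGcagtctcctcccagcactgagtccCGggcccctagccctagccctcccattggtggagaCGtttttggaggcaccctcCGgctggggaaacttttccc
Col4a1: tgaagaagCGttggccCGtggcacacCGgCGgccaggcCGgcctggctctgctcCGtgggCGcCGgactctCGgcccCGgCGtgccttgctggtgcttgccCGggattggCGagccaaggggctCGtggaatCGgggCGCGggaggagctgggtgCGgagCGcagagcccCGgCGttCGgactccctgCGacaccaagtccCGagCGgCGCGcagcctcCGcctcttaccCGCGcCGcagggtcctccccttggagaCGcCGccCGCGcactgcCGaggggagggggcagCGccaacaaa
Col3a1: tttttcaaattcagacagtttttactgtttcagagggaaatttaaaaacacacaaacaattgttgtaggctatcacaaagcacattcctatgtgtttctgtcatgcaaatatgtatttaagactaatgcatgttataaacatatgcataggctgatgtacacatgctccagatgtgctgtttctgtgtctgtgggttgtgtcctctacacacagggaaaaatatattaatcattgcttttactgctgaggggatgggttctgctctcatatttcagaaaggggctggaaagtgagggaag

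Col13a1 encodes a transmembrane collagen of cell contacts, and its window lies at chr10:61979059-61979358 on the minus strand. A tile covers bases 159 to 300 of that window, with 18 of its 29 CpGs. In the authors' deposited tables it was listed at 23.6 and 44.1 points in lines 1 and 3 with long culture and at -24.2 points with BrafV600E in line 1. Col25a1, which encodes a transmembrane collagen of neurons and muscle, has its window at chr3:130180595-130180894 on the plus strand. Tiles over bases 7 to 206 and 207 to 300 were listed at -50.0 points with BrafV600E and 47.0 points with long culture, both in line 3, per the authors' deposited tables. Of Col24a1, a fibrillar collagen gene (chr3:145292222-145292521, plus strand), all 6 CpGs lie in a tile that the authors' deposited tables list at 40.9 points with BrafV600E and 46.7 points with long culture in line 3. For Col1a2, which encodes the second chain of type I collagen (chr6:4505368-4505667, plus strand), a tile with 10 of the 13 CpGs was listed at 74.1 points with long culture in line 3, per the authors' deposited tables. The Col4a1 window (chr8:11312777-11313076, minus strand) holds 37 CpGs and overlaps the Col4a2 window on the other strand, while the Col3a1 window (chr1:45311288-45311587, plus strand) holds 0. The motif CCGG, which reads the same on both strands and is the site of the enzyme usual for this assay, occurred in 22 of 36 collagen windows (61.1%) and in 52.8% of all 32851 windows. Those 32851 windows belong to 27025 genes, a wider set than the 16457 autosomal protein-coding genes used above.

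Listed tiles were found for 37 of the 42 genes within the gene and 2 kb on either side (88.1%, against 46.3% of all 20665 genes). They lay within 1 kb of a gene end for 26 genes (61.9%, against 27.7% of all genes) and in the interior for 37 (88.1%, against 30.8%). Collagen genes are long, with a median span of 110 kb and 24 of 42 over 100 kb, against a median of 17.5 kb over all genes. The shares over the span and the interior therefore cannot be read apart from length. The gene-end window has a fixed size, and the part of CpG content or coverage in its share was not tested. Col10a1 of growth-plate cartilage, the FACIT gene Col20a1, Col28a1, the basement membrane gene Col4a2 and the type VI gene Col6a1 had no listed tile. The tables hold 318 listings at 237 different tiles: 174 tiles occurred in 1 table, 47 in 2, 14 in 3 and 2 in all 4 line-by-comparison pairs. Listings were most numerous at Col13a1 (31), Col26a1 (30) and Col25a1 (26). Per kilobase they were densest at Col2a1, with 0.513 listings per kb, followed by Col11a2 with 0.409 and Col1a1 with 0.336. Only 4 listings lay at or in another protein-coding gene as well, 3 of them at the end of Rxrb beside Col11a2 and 1 where Col4a3 and Col4a4 meet head to head. Exons and introns are not told apart here.

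With BrafV600E in Base medium, 3 collagen genes gained methylation within 1 kb of a gene end in both lines without an opposite tile. They are Col2a1 and Col11a1, which encode cartilage collagens, and Col5a2, a chain of the type V collagen that starts type I fibrils. The same rule called 3.56% of all 20665 genes and 7.14% of the collagen genes. At 40 points or more 0 collagen genes were called, and 1 was with 2 tiles required in each line. Col2a1 (chromosome 15, 97975602 to 98004724) had tiles at 33.2 and 31.3 points in line 1 and at 46.9 and 24.8 points in line 3, per the authors' deposited tables. All 4 lay at the higher-coordinate end of the gene, and no tile was listed in both lines. Col11a1 (chromosome 3, 114030479 to 114220756) had 32.8 and 39.3 points in line 1 and 30.5 points in line 3, per the authors' deposited tables. The tile from 114030801 to 114031000, with its centre 0.42 kb inside the 5′ end, was shared by the lines. Col5a2 (chromosome 1, 45374331 to 45503282) had the largest of these gains, at 84.3 and 96.0 points in line 1, against 31.2 points in line 3 at 1 tile, per the authors' deposited tables. The lines therefore share the direction at Col5a2 but differ in size at the shared tile from 45502401.

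Col11a2, whose product pairs with that of Col11a1 in cartilage fibrils, was the only collagen gene called lost at gene ends in both lines with BrafV600E when genes with an opposite tile are left out, against 0.731% of all genes. Its single tile (chromosome 17, 34038601 to 34038800) lies just upstream of the 5′ end and inside the window of Rxrb, a nuclear receptor gene, so the change belongs to no single gene. It was listed at -41.8 points in line 1 and -22.7 points in line 3, per the authors' deposited tables, and at -32.4 points with long culture in line 1. Without tiles near another gene, the same rule called 0 collagen genes. Col15a1 also had a lost tile at its 5′ end in each line, at -26.1 points in line 1 and -27.1 points in line 3 at different tiles, but it gained at another tile in line 3, per the authors' deposited tables.

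Taken line by line, gene ends of 8 collagen genes gained and of 2 lost methylation in line 1 with BrafV600E, against 9.29% and 3.29% of all genes, while 1 gene, Col13a1, had tiles of both directions (0.571% of all genes). In line 3 the ends of 6 gained and of 6 lost, against 8.79% and 6.28% of all genes, and 2 genes, Col9a2 and Col15a1, had tiles of both directions (1.69%). Gains listed in line 1 alone included Col7a1, at 100 points on 1 tile with a q-value of 0.00731, and the type VI gene Col6a6, at 76.5 and 77.8 points, per the authors' deposited tables. Gains in line 3 alone included the type VI gene Col6a4, at 91.3 points in its promoter window, and the FACIT gene Col16a1, at 31.8 points, per the authors' deposited tables. Losses in line 3 alone were found at Col5a3, Col9a3, Col23a1 and Col26a1, where Col26a1 had 3 tiles at -34.2, -31.2 and -41.9 points, per the authors' deposited tables. Col25a1 was called in opposite directions in the lines (2.05% of all genes), with 36.3 points in line 1 and -50.0 points in line 3 at different tiles, per the authors' deposited tables.

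**Figure D1:**
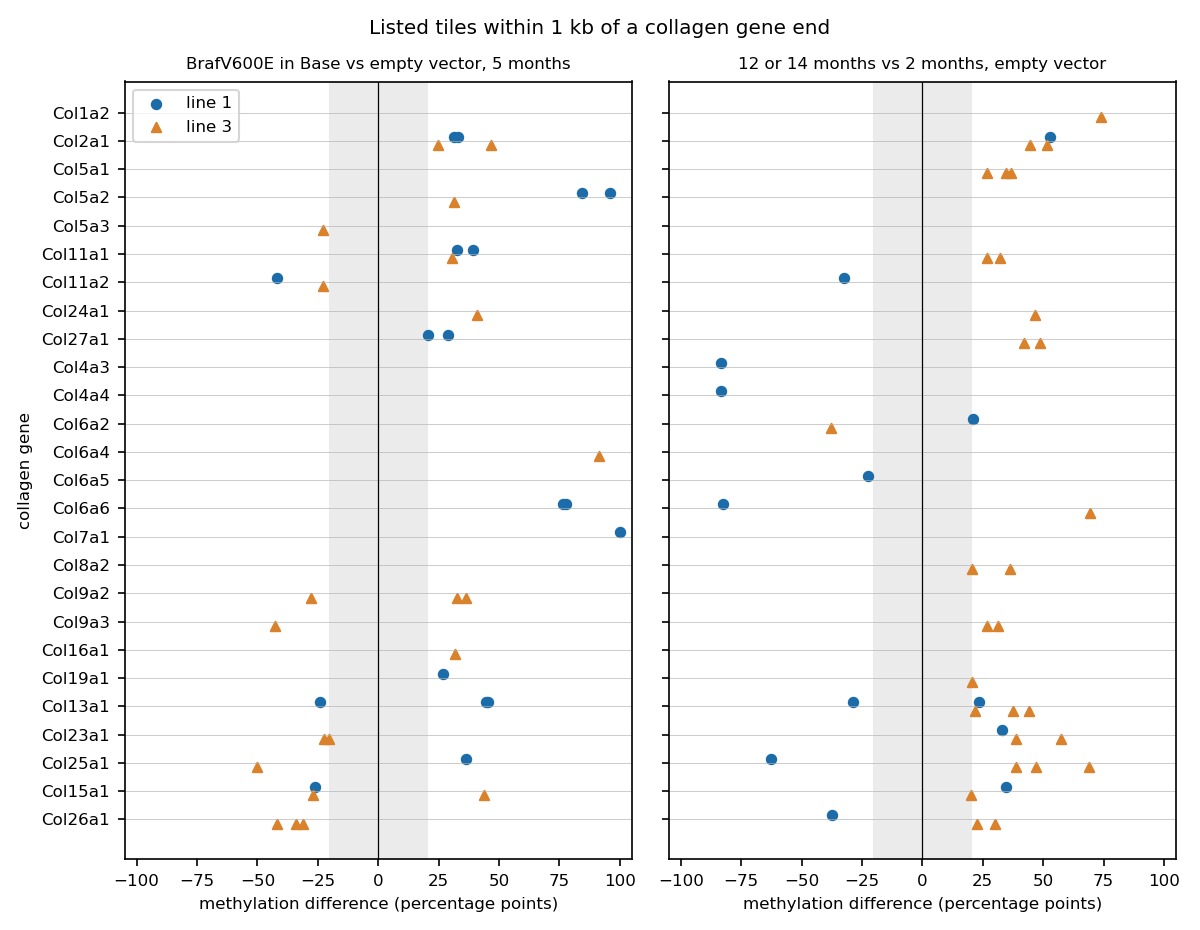
Methylation differences (x axis, percentage points) of every listed tile within 1 kb of an end of a collagen gene (rows, ordered by structural class), for BrafV600E in Base medium against EV at 5 months (left) and 12 or 14 months against 2 months of EV culture (right); circles are line 1, triangles line 3, and the grey band holds differences under 20 points, which are not listed. Gains and losses are mixed in the left panel, while all but 1 of the 29 line 3 tiles in the right panel are gains. At the ends of all genes, gains made up 79.0% and 62.5% of tiles with BrafV600E in lines 1 and 3. With long culture they made up 59.3% and 89.2%.

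Inside the genes, away from the ends, the lines differed in balance with BrafV600E. In line 1 the collagen interiors held 19 gained and 17 lost tiles. In line 3 they held 21 gained and 88 lost tiles. Gains therefore made up 52.8% of line 1 tiles (exact Clopper-Pearson 95% interval 35.5 to 69.6) and 19.3% of line 3 tiles (12.3 to 27.9), whereas over the interiors of all genes they made up 67.3% and 40.4%. Intervals cover counting error only, and neighbouring tiles are not independent. Per megabase of interior the collagen genes held 18.2 lost tiles in line 3 against 7.74 over all genes, and 4.34 gained tiles against 5.25; in line 1 the lost tiles were 3.51 against 2.17 and the gained tiles 3.93 against 4.48 per megabase. The share of CpG-rich fragments in these interiors is not known from the tables, so the part of coverage in these densities was not tested.

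Counted by gene, 17 collagen interiors (40.5%) only lost methylation in line 3 with BrafV600E and 4 (9.52%) only gained, against 9.65% and 7.91% of all genes. In line 1 the counts were 3 (7.14%) and 9 (21.4%), against 4.33% and 8.12%. Tiles of both directions were found in 7 interiors in line 1 (16.7%) and 6 in line 3 (14.3%), against 2.83% and 5.18% of all genes. Because 1 tile can make a call, calls in interiors, here and below, cannot be read apart from gene length. Col5a3, a minor type V chain, was the only gene with losses and no opposite tile in both lines (1.54% of all genes), with -77.8 points on 1 tile in line 1 and -79.3, -35.1, -47.4, -85.7 and -50.8 points in line 3, per the authors' deposited tables. None of these tiles was common to the lines, and 0 genes were called at a q-value under 0.001. With opposite tiles allowed 8 collagen interiors lost in both lines, among them Col13a1, Col19a1, Col25a1 and Col26a1, where lost tiles were common to the lines. The share of all genes under that wider rule was not counted, so these 8 cannot be set against the 1.54%. Col1a1, which encodes the main chain of type I collagen, had 5 lost tiles in line 3, at -40.0, -43.5, -65.5, -50.0 and -46.4 points, per the authors' deposited tables, and no BrafV600E tile in line 1. Col5a1, the main type V chain, had 8 lost tiles in line 3, from -24.5 to -86.7 points, per the authors' deposited tables, beside 1 gain of 31.2 points. Col23a1, a transmembrane collagen gene, likewise had 8 lost interior tiles in line 3, from -23.2 to -70.4 points, per the authors' deposited tables, and no BrafV600E tile in line 1.

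By the rule for both lines, gains were called at 3 collagen interiors with BrafV600E (7.14%) and losses at 1 (2.38%). Col11a2, Col4a4 and Col18a1 gained in both lines with BrafV600E without an opposite tile, against 2.82% of all genes. With opposite tiles allowed 7 did, and with 2 tiles required 0 did, but all genes were not counted under these alternatives. Col11a2 had 7 gained tiles in line 3, from 41.2 to 77.8 points, and 1 of 49.7 points in line 1, per the authors' deposited tables. The tile from 34060601 was common to the lines, at 49.7 points in line 1 and 65.6 points in line 3, per the authors' deposited tables. Col4a4, a chain of the basement membrane of the kidney glomerulus, shared 1 tile between lines (chromosome 1, 82538801 to 82539000), at 60.0 and 53.8 points in lines 1 and 3, per the authors' deposited tables. Col18a1, whose product releases endostatin, had 1 tile in each line, at 68.0 and 48.3 points, per the authors' deposited tables, at different places. Col4a1, the main basement membrane chain, also had a shared gain, at 72.9 points in line 1 and 92.5 points in line 3 at the tile of chromosome 8 from 11279601, per the authors' deposited tables, beside -37.1 points at another tile in line 3. Col12a1 and Col15a1 were called in opposite directions in the lines (2.15% of all genes). Col12a1 had 38.1 and 36.2 points in line 1 and -88.0 and -24.9 points in line 3, per the authors' deposited tables. Col15a1 had 26.7 points in line 1 and -26.1 points in line 3 at different tiles, per the authors' deposited tables.

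**Figure D2:**
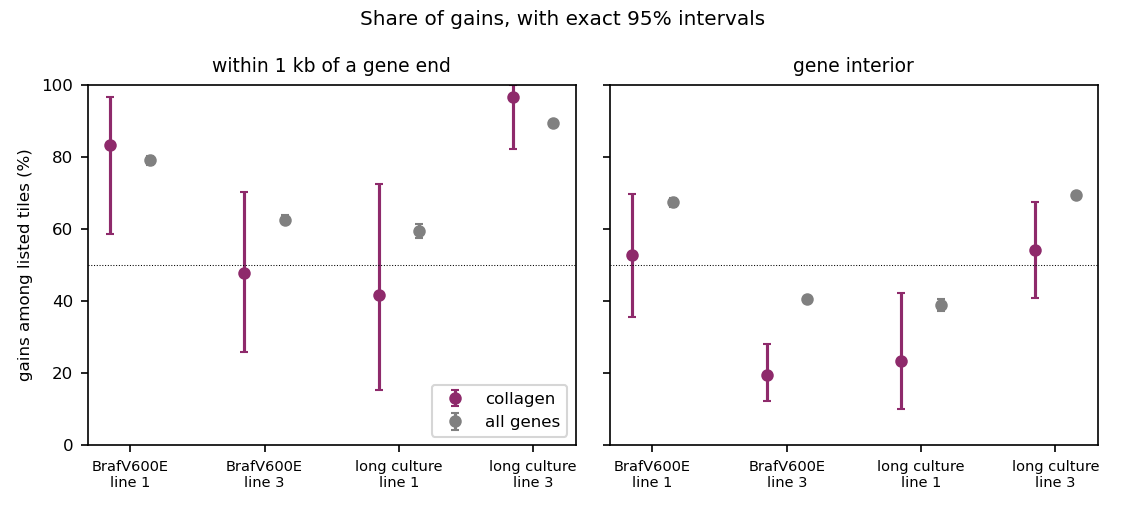
Share of gains among listed tiles (y axis, percent) for the 42 collagen genes (left point of each pair) and for all autosomal protein-coding genes (right point), within 1 kb of a gene end (left panel) and in the gene interior (right panel), for each comparison and line; bars are exact 95% intervals over tiles. In the interior the collagen share lies under that of all genes in each pair, as in 19.3% against 40.4% for BrafV600E in line 3.

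After 12 or 14 months of culture, gene ends of 4 collagen genes gained methylation in line 1 and of 15 in line 3, against 4.71% and 12.5% of all genes. Losses were called at 7 in line 1 and 1 in line 3, against 4.03% and 2.91%, and tiles of both directions at 1 in line 1 and 0 in line 3, against 0.581% and 0.590%. By the same rule Col2a1, Col15a1 and Col23a1 gained in both lines (3.13% of all genes), and 0 collagen genes lost in both lines (0.392% of all genes). Of these gains 1 was called at 40 points or more and 0 with 2 tiles required. Col2a1 had 52.9 points in line 1, against 51.4 and 44.7 points in line 3, at different tiles, per the authors' deposited tables. Col15a1, a multiplexin gene of the basement membrane zone, had 34.5 points in line 1 and 20.2 points in line 3 at 1 shared tile (chromosome 4, 47208401 to 47208600), per the authors' deposited tables. That tile was also listed at 44.0 points with BrafV600E in line 3, per the authors' deposited tables. Col23a1 had 33.1 and 38.9 points in lines 1 and 3 at the shared tile from 51290201, and line 3 had 57.2 points at the tile next to it, per the authors' deposited tables. The neighbouring tile, from 51290001, was listed at -20.3 points with BrafV600E in line 3, per the authors' deposited tables.

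Gains listed with long culture in line 3 alone covered several fibrillar genes. Col5a1 had a run of 3 tiles at its 5′ end, at 34.7, 26.6 and 36.5 points, per the authors' deposited tables. Col27a1, a cartilage collagen gene, had 42.1 and 48.6 points at its 5′ end in line 3, per the authors' deposited tables; the same tiles had 20.7 and 29.0 points with BrafV600E in line 1. Col11a1 had 26.9 and 32.2 points, and Col8a2, a collagen gene of the cornea, 20.5 and 36.1 points in line 3, per the authors' deposited tables. None of these 4 genes had a tile at its ends in line 1 with long culture.

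Another 4 genes, Col25a1, Col26a1, Col6a2 and Col6a6, were called in opposite directions in the lines at their ends with long culture, against 1.96% of all genes. The call at Col6a6 rests on 1 tile (chromosome 9, 105828601 to 105828800, upstream of the 5′ end), at -82.4 points in line 1 and 69.2 points in line 3 with long culture, and at 76.5 points with BrafV600E in line 1, per the authors' deposited tables. Col4a3 and Col4a4 share 1 lost tile in line 1, from 82586401 near the place where the genes meet, at -83.3 points, per the authors' deposited tables. At Col25a1 line 1 had -62.6 points and line 3 had 38.7 points at the same tile and 47.0 and 69.0 points at other tiles, per the authors' deposited tables. At Col26a1 line 1 had -37.3 points and line 3 had 30.1 and 22.5 points, at different tiles, per the authors' deposited tables. At Col6a2 the tiles lay at opposite ends of the gene, with 21.1 points at the 5′ end in line 1 and -38.0 points at the 3′ end in line 3, per the authors' deposited tables.

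In the interior, long culture gave 7 gained and 23 lost tiles in line 1 and 32 gained and 27 lost in line 3. Gains made up 23.3% (9.93 to 42.3) and 54.2% (40.8 to 67.3) of tiles, against 38.9% and 69.3% over all gene interiors. Per megabase of interior there were 4.76 lost tiles in line 1 and 5.58 in line 3, against 2.05 and 2.64 over all genes, and 1.45 gained tiles in line 1 and 6.62 in line 3, against 1.30 and 5.98. By gene, 1 interior gained and 10 lost in line 1, against 2.69% and 5.58% of all genes, and 13 gained and 10 lost in line 3, against 8.45% and 5.33%. Another 4 in line 1 and 9 in line 3 had tiles of both directions, against 1.42% and 3.54% of all genes. Interior calls with long culture likewise cannot be read apart from gene length. With no opposite tile, Col11a2 gained in both lines (1.40% of all genes), at 65.6 points in line 1 and 57.7 points in line 3, per the authors' deposited tables, at different tiles. Col5a1 lost in both (0.982% of all genes), at -40.0 points in line 1 and -100 points in line 3, per the authors' deposited tables, again at different tiles. With opposite tiles allowed, a rule not counted over all genes, 4 interiors gained and 6 lost in both lines, and with 2 tiles required 0 did either. A further 6 genes were called in opposite directions: Col1a1, Col2a1, Col6a2, Col12a1, Col23a1 and Col24a1 (1.69% of all genes). At Col1a1 line 1 had -76.9 points and line 3 had 47.2 points, at different tiles, per the authors' deposited tables. At Col2a1 line 1 had -80.0 and -21.0 points and line 3 had 29.4 and 28.2 points, per the authors' deposited tables. At Col23a1 the values were -94.7 and -100 points in line 1 and 27.9 points in line 3, per the authors' deposited tables. Col24a1 had -69.6 points in line 1 against 41.7 points in line 3, and Col6a2 had -47.0 and -43.9 points in line 1 and 31.6 points in line 3, per the authors' deposited tables. Col12a1, a FACIT gene of tendon and other dense tissue, had the longest line 3 run beside that of Col13a1, with 4 gained tiles over 1000 bp, at 49.1, 55.7, 25.8 and 44.6 points, per the authors' deposited tables. Its tile from 79719201 was listed in all 4 pairs: 36.2 and -24.9 points with BrafV600E and -33.5 and 44.6 points with long culture, in lines 1 and 3, per the authors' deposited tables.

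RefSeq strand was known for the 33 genes with a promoter window. At their ends 60 of 61 listings lay at the 5′ end (98.4%), against 86.4% of 15161 listings at the ends of all genes with a known strand; the exception was the loss of Col6a2 in line 3 with long culture. At these 5′ ends 11 tiles gained and 3 lost with BrafV600E in line 1, 7 gained and 7 lost with BrafV600E in line 3, 4 gained and 6 lost with long culture in line 1, and 22 gained and 0 lost with long culture in line 3. The 5′ ends of all genes of known strand held 2337 gains and 643 losses with BrafV600E in line 1, and 2438 and 1260 in line 3. With long culture they held 1082 gains and 708 losses in line 1, and 4152 and 476 in line 3. More than 5 kb inside the 33 collagen genes, gains made up 19 of 80 tiles (23.8%) with BrafV600E in line 3, against 35.1% over all genes of known strand, and 14 of 36 tiles (38.9%) with long culture in line 3, against 62.8%. In line 1 they made up 11 of 23 tiles (47.8%) with BrafV600E, against 63.8%, and 3 of 16 (18.8%) with long culture, against 32.1%. Interiors within 5 kb held few tiles, with gains 2 of 2 and 0 of 4 with BrafV600E (76.6% and 61.1% over all genes) and 1 of 2 and 5 of 7 with long culture (59.2% and 83.3%), in lines 1 and 3. The 9 collagen genes of unknown strand are not in these counts. Their interiors held 13 gained and 3 lost tiles with long culture in line 3, and 2 gained and 23 lost with BrafV600E in line 3. In line 1 these interiors held 3 gained and 9 lost tiles with long culture, and 6 gained and 5 lost with BrafV600E.

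**Figure D3:**
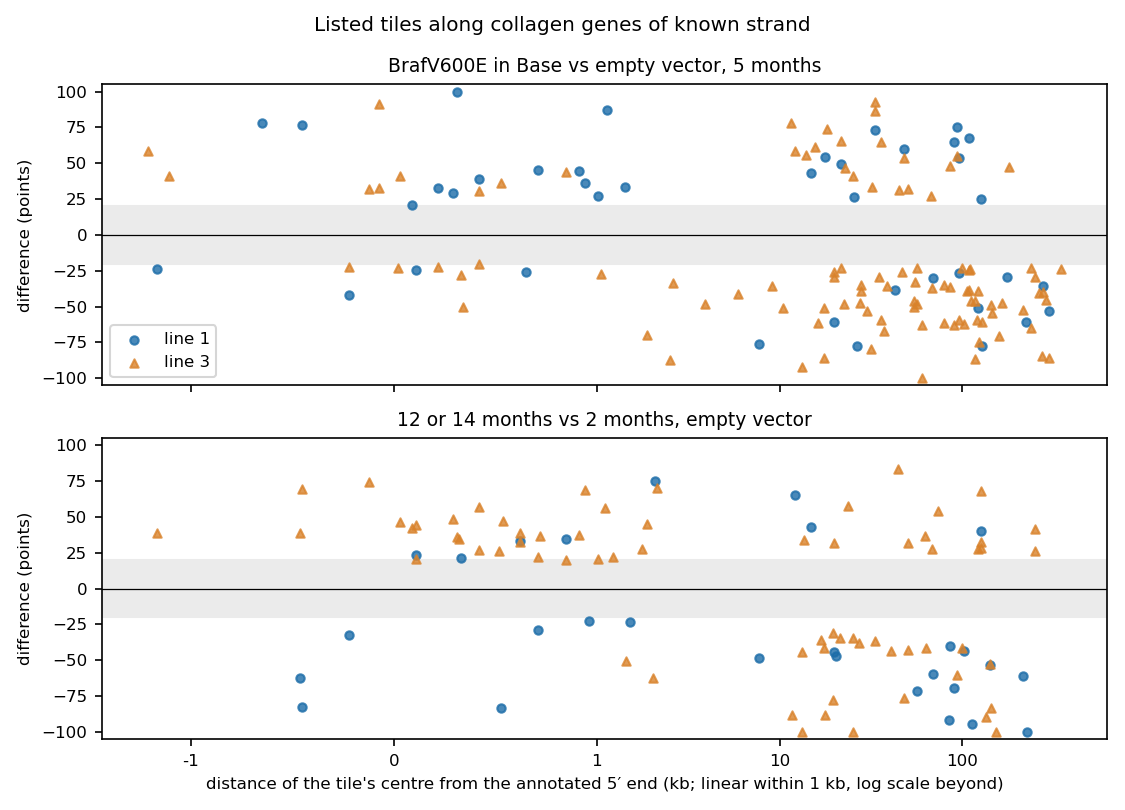
Methylation difference (y axis, percentage points) of each listed tile against the distance of its centre from the annotated 5′ end (x axis, kb, linear within 1 kb and logarithmic beyond), for the 33 collagen genes of known strand; circles are line 1, triangles line 3. With long culture (lower panel) the line 3 tiles within 1 kb of the 5′ end are all gains, while 22 of 36 line 3 tiles over 5 kb inside are losses. The 5′ ends of all genes of known strand held 4152 gains and 476 losses with long culture in line 3. In line 1, 13 of 16 long-culture tiles over 5 kb inside the collagen genes are losses.

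Tiles listed in both lines allow a direct comparison. With BrafV600E 16 collagen tiles were listed in both lines, 29.1% of those in line 1 and 12.1% of those in line 3. Of these, 5 gained in both, 8 lost in both and 3 gained in line 1 but lost in line 3, so 81.2% had the same direction, against 74.3% of 4206 tiles over all genes. With long culture 15 tiles were listed in both lines (35.7% and 16.9%), of which 6 gained in both, 2 lost in both, 6 lost in line 1 but gained in line 3 and 1 did the reverse. The same direction was found for 53.3%, against 70.5% of 2547 tiles over all genes. Losses shared between lines with BrafV600E were found at Col13a1, Col19a1, Col25a1, Col26a1 and, at the tile near Rxrb, Col11a2. In lines 1 and 3 Col25a1 had -52.8 and -85.9 points at the tile of chromosome 3 from 130477801, per the authors' deposited tables. Col19a1 had -35.4 and -39.9 points at the tile of chromosome 1 from 24312201, in lines 1 and 3, per the authors' deposited tables.

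The comparisons use different libraries, so the same tile can be followed from one to the other within a line. In line 3, 23 collagen tiles were listed in both comparisons, 17.4% of those with BrafV600E and 25.8% of those with long culture. Of these, 13 lost with BrafV600E and gained with long culture, 3 did the reverse, 4 gained in both and 3 lost in both; over all genes 54.9% of 5048 such tiles had the same direction, against 30.4% here. Col27a1 showed the contrast at the tile of chromosome 4 from 63215801, with -69.5 points with BrafV600E and 45.4 points with long culture in line 3, per the authors' deposited tables. Col9a3, a cartilage FACIT gene, had -87.5 and 74.2 points at the tile of chromosome 2 from 180600601 in line 3, per the authors' deposited tables. In the reverse direction, Col4a4 had 53.8 points with BrafV600E and -76.0 points with long culture at the tile from 82538801 in line 3, per the authors' deposited tables. Col22a1, a FACIT gene of tissue junctions, was among the 3 that lost in both, with -36.8 points with BrafV600E in line 3 and -60.7 points with long culture in line 3 at the tile from 71868801, which line 1 listed at -55.6 points with long culture, per the authors' deposited tables. In line 1 the 12 shared tiles split evenly, with 6 of the same and 6 of opposite direction (50.5% the same over 1795 tiles of all genes).

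Col13a1, Col26a1 and Col25a1 carried the most listings, and Col11a2 had gains along its body. Col13a1 (chromosome 10, 61838234 to 61979206) held a run of 4 gained tiles over 1200 bp at its 5′ end with long culture in line 3, at 56.3, 37.5, 21.8 and 44.1 points, per the authors' deposited tables. Line 1 had tiles of both directions there with long culture, at -28.7 points from 61978401 and 23.6 points from 61979001, per the authors' deposited tables. The same stretch had 44.5, 45.3 and -24.2 points with BrafV600E in line 1, and no tile with BrafV600E in line 3, per the authors' deposited tables. Deeper in Col13a1, 10 interior tiles lost with BrafV600E in line 3 and 2 in line 1. Other interior tiles gained with BrafV600E, 2 in line 3 at 32.0 and 64.8 points and 1 in line 1 at 24.8 points, per the authors' deposited tables. Both line 1 losses recurred in line 3: -77.5 and -60.9 points at the tile from 61851001, and -50.8 and -39.2 points at the tile from 61857601, in lines 1 and 3, per the authors' deposited tables. Col26a1 (chromosome 5, 136741759 to 136883376) encodes a collagen known from testis and ovary. Its tile from 136881801 was listed in all 4 pairs, with the same sign in both lines of each comparison, at -37.2 and -47.6 points with BrafV600E and 47.6 and 44.4 points with long culture, in lines 1 and 3, per the authors' deposited tables. All 13 tiles of Col26a1 with BrafV600E in line 3 were losses. Col25a1 (chromosome 3, 130180358 to 130599884) lost 9 interior tiles with BrafV600E in line 3, from -23.9 to -85.9 points, per the authors' deposited tables. Beside these losses 1 interior tile gained in line 3, at 47.7 points, per the authors' deposited tables. In line 1 Col25a1 lost 2 interior tiles and gained 2. With long culture its tile from 130321001 lost in both lines, at -53.4 and -52.5 points in lines 1 and 3, per the authors' deposited tables.

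**Figure D4:**
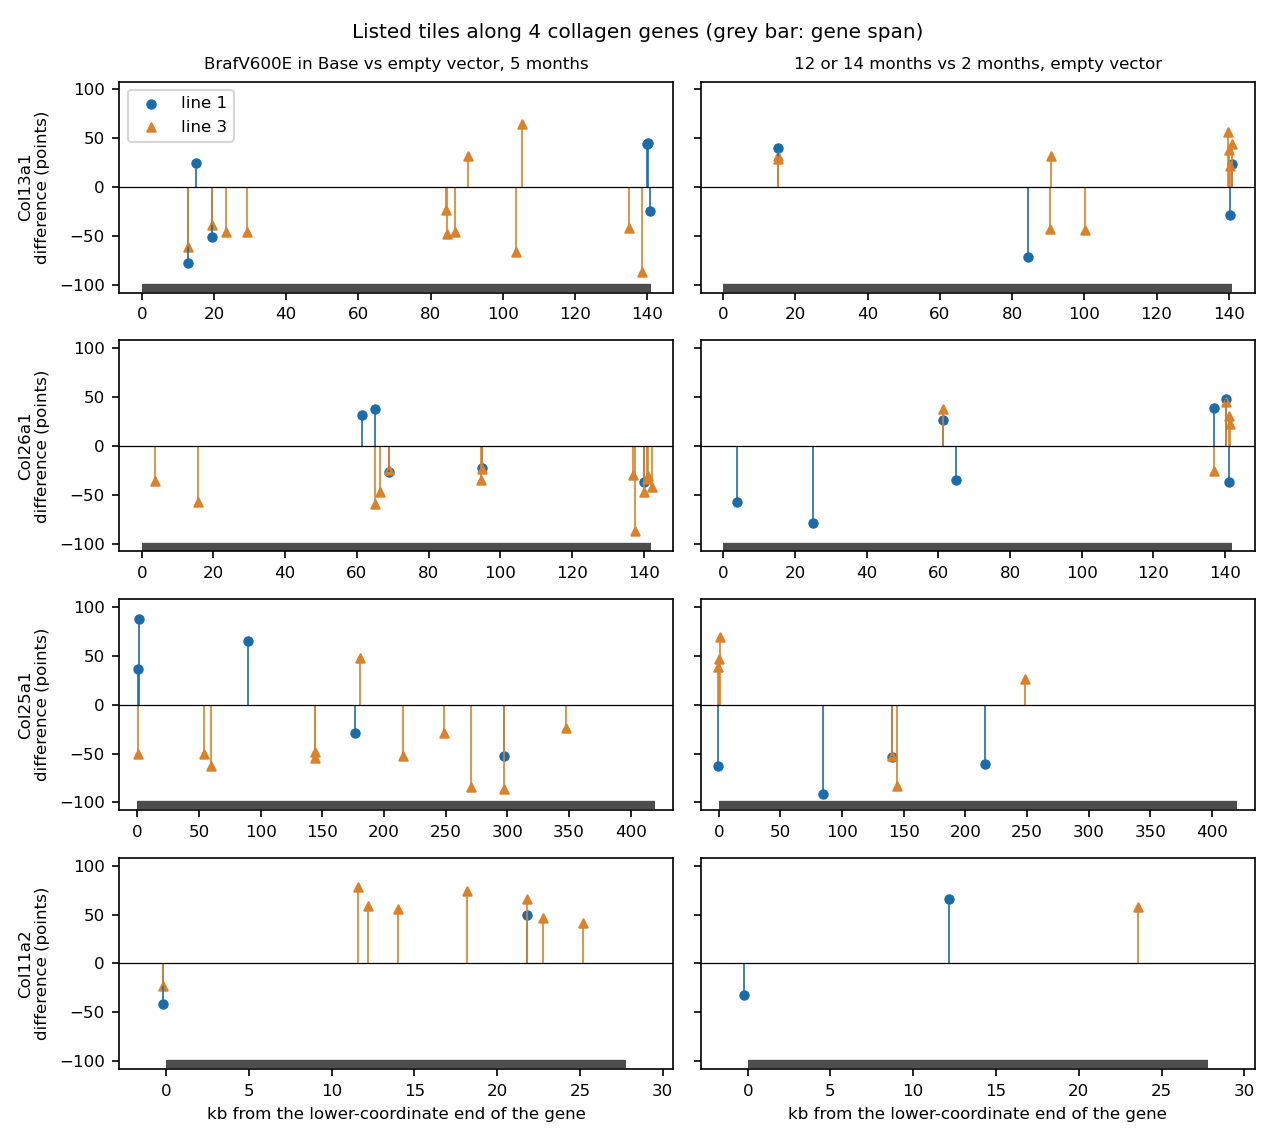
Listed tiles along Col13a1, Col26a1, Col25a1 and Col11a2 (rows), as distance in kb from the lower-coordinate end of the gene (x axis) and methylation difference in percentage points (y axis), for BrafV600E against EV (left) and long against short culture (right); circles and stems are line 1 in blue and line 3 in orange, and the grey bar is the gene. The single upstream loss of Col11a2 stands beside 7 interior gains in line 3, and all 13 Col26a1 tiles with BrafV600E in line 3 are losses.

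Over all genes, gains made up 72.1% and 47.3% of tiles with BrafV600E and 47.9% and 78.1% with long culture, in lines 1 and 3. By structural class, the 11 fibrillar genes had 11 gained and 9 lost tiles in line 1 and 16 gained and 27 lost in line 3 with BrafV600E, and 3 gained and 9 lost in line 1 and 18 gained and 6 lost in line 3 with long culture. The 4 transmembrane genes had 6 gained and 5 lost tiles in line 1 and 3 gained and 31 lost in line 3 with BrafV600E, nearly all in Col13a1, Col23a1 and Col25a1; with long culture they had 3 gained and 8 lost in line 1 and 15 gained and 4 lost in line 3. The 4 autosomal type IV genes had more gains than losses with BrafV600E, at 3 gained and 0 lost in line 1 and 5 gained and 1 lost in line 3. These few tiles lay at Col4a1, Col4a3 and Col4a4, and gains were also most of the line 1 tiles over all genes. With long culture the type IV genes had 0 gained and 1 lost tile in line 1 and 2 gained and 3 lost in line 3. The 9 FACIT genes had 4 gained and 2 lost tiles in line 1 and 4 gained and 10 lost in line 3 with BrafV600E, and 0 gained and 3 lost in line 1 and 13 gained and 6 lost in line 3 with long culture. The 6 type VI genes had 4 gained and 1 lost in line 1, and 2 gained and 12 lost in line 3, with BrafV600E, and 1 gained and 4 lost in line 1, and 5 gained and 6 lost in line 3, with long culture. Col17a1 had 1 BrafV600E tile, at -35.7 points in line 3, and 1 tile with long culture, at 83.3 points in line 3, per the authors' deposited tables. Col3a1, the type III gene whose promoter window has no CpG, had 1 tile in all, at -60.9 points with BrafV600E in line 1, per the authors' deposited tables.

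The 43 other genes of the collagen pathway, which fold, cut, cross-link, bind or degrade collagen, were counted by the same rule, and the shares of all genes given above apply to them too. At gene ends 6 of them gained and 1 lost in both lines with BrafV600E, against 3.56% and 0.731% of all genes. With long culture 2 gained and 1 lost in both lines, against 3.13% and 0.392%. Line by line, 8 gained and 2 lost with BrafV600E in line 1, against 9.29% and 3.29%. In line 3, 11 gained and 6 lost, against 8.79% and 6.28%. The long-culture counts were 2 gained and 4 lost in line 1, against 4.71% and 4.03%. In line 3 they were 10 gained and 4 lost, against 12.5% and 2.91%. Adamts2, the protease that removes the amino propeptide of fibrillar procollagens, gained in both comparisons, with means of 34.0 points over 3 tiles and 55.9 points over 4 tiles with BrafV600E and of 34.2 points over 1 tile and 34.2 points over 5 tiles with long culture, in lines 1 and 3, per the authors' deposited tables. Adamts3, its relative in cartilage, gained 31.0 and 25.7 points over 3 tiles each, and Tll1, a procollagen C-proteinase gene, 36.2 points over 5 tiles and 35.2 points over 4, with BrafV600E in lines 1 and 3, per the authors' deposited tables. Mmp14, a membrane-bound collagenase gene, gained 52.0 and 48.6 points over 4 tiles in each line with BrafV600E, but lost with long culture in line 1, at a mean of -88.9 points over 4 tiles, per the authors' deposited tables. Ddr1, an epithelial collagen receptor, gained 38.1 and 71.1 points with BrafV600E and had -80.2 and -20.7 points with long culture, on 1 tile each in lines 1 and 3, per the authors' deposited tables. Itga10, a collagen-binding integrin gene, gained 44.4 and 50.0 points on 1 tile per line, and P4ha2, a collagen prolyl hydroxylase gene, had -42.5 and -43.4 points on 1 tile per line, with BrafV600E, per the authors' deposited tables. Mmp2, a gelatinase gene, gained with long culture in line 1, at 51.3 points on 1 tile, and in line 3, at a mean of 66.7 points on 2 tiles, per the authors' deposited tables.

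Inside the pathway genes, 15 gained and 3 lost in line 1 with BrafV600E, against 8.12% and 4.33% of all genes. In line 3, 10 gained and 3 lost, against 7.91% and 9.65%. In both lines 7 gained and 1 lost, against 2.82% and 1.54%. A further 1 interior in line 1 and 7 in line 3 had tiles of both directions, against 2.83% and 5.18%. Over the interiors of all genes, gains made up 67.3% of tiles in line 1 and 40.4% in line 3. By tile the pathway interiors held 21 gains and 4 losses in line 1 and 22 gains and 28 losses in line 3 with BrafV600E, with 7 of the line 3 losses at Adamts2 and 7 at Tll2, a relative of Tll1. The integrin genes Itga2 and Itgb1, whose products form a collagen receptor of epithelial cells, gained 71.5 and 47.3 points and 50.6 and 59.8 points on 1 tile per line in lines 1 and 3, per the authors' deposited tables, while Itga1, another collagen-binding integrin gene, had means of -28.5 points over 1 tile and -40.0 points over 3. With long culture 1 pathway interior gained and 9 lost in line 1, against 2.69% and 5.58% of all genes. In line 3, 9 gained and 4 lost, against 8.45% and 5.33%. In both lines 1 gained and 3 lost, against 1.4% and 0.982%. Another 4, Colgalt1, Loxl1, Loxl3 and Mmp9, were called in opposite directions in the lines (1.69% of all genes).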

How the data were processed

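Per the labels' protocols, libraries were read as 50 bp single ends with about 10% phiX. The submitters' processing notes name methylKit 1.7.4, Bismark 0.14.3, Trim Galore 0.4.4, FastQC 0.11.7 and the build GRCm38 (mm10). The conversion rate and coverage minimum were not given in the sources used here. All 8 deposited tables give, per the file headers, the methylation difference of a 200 bp tile in percentage points with its p-value and q-value; every tile is past 20 points and q of 0.01. Each table is within 1 line, so q-values compare 2 libraries, not the conditions. Read depth is unknown.

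Gene spans came from a RefSeq table of GRCm38.p6, strand and promoters from its promoter table. Tiles overlapping a span with 2 kb on either side were split into gene ends (within 1 kb of an end), interior, and the outer flank. Ends are those of the span, so promoter windows and gene ends can disagree. The Col6a5 tile from 105960601 lies in a promoter window but counts as interior. The Col27a1 window starts at 63215162, inside the span that starts at 63214009. A gene was called in a line if at least 1 tile moved one way and none the other. Named genes were those called alike in both lines or oppositely, those with tiles listed in all 4 pairs, the longest runs (gaps up to 500 bp) and the densest; others, and the 5′ split, were added after seeing values. Members and lists were chosen with earlier results of these data known. The assignment of tiles was tested on simulated data. Alternatives were 40 points, q under 0.001, 2 kb ends, 2 tiles, opposite tiles allowed, tiles near other genes left out, regions merged within 500 bp, and either line alone. Python 3.11.15, pandas 2.3.3 and SciPy 1.17.1 were used.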

Additional observations from a re-analysis of the deposited data

Results flagged for a closer look

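Tiles listed in both lines of a comparison with opposite directions were singled out; the difference between lines was not tested, and no tile has a replicate within its line. With BrafV600E, Col12a1 had 36.2 points in line 1 and -24.9 points in line 3 at the tile of chromosome 9 from 79719201, per the authors' deposited tables. Col26a1 had 37.8 and -59.6 points in lines 1 and 3 at the tile of chromosome 5 from 136806601, and Col6a4 had 53.8 and -59.1 points at the tile of chromosome 9 from 106001401, per the authors' deposited tables.

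With long culture, Col12a1 had -33.5 points in line 1 and 44.6 points in line 3 at the same tile as above, per the authors' deposited tables. Col6a6 had -82.4 and 69.2 points, Col25a1 -62.6 and 38.7 points, and Col13a1 -28.7 and 21.8 points at tiles near their ends, in lines 1 and 3, per the authors' deposited tables. In the interior, Col6a2 had -43.9 and 31.6 points, Col2a1 -21.0 and 28.2 points, and Col26a1, at the tile from 136878601, had 38.8 and -26.0 points in lines 1 and 3, per the authors' deposited tables.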

How the results depend on the processing

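No paired analysis was possible because the tables hold differences already paired within each line and no value per library, which a fit with a replicate block needs; over 2 such differences an exact sign-flip permutation test cannot go below p = 0.5. Counts below are collagen genes called in both lines. The shares of all genes given above are for the main rule, in both lines or in each line alone, and were not counted under the other alternatives. At 40 points or more, BrafV600E gave 0 gaining and 0 losing at gene ends (3 and 1 otherwise), and long culture 1 gaining at ends and 2 losing in the interior (3 and 1 otherwise), with a share of gains of 56.2% in line 3. With q under 0.001, 0 interiors lost with BrafV600E, and the share of gains in line 1 was 79.4% with BrafV600E and 47.6% with long culture (61.8% and 28.6% otherwise). With 2 kb ends, 2 genes lost at ends and 2 in the interior with BrafV600E, and 2 in the interior with long culture. Without tiles near another gene, 0 lost at ends with BrafV600E. With 2 tiles required, 1 gained and 0 lost at ends, and 0 gained and 0 lost inside, with BrafV600E; with long culture 0 gained at ends and 0 gained or lost inside. With opposite tiles allowed, BrafV600E gave 2 losing at ends, 7 gaining and 8 losing inside, and long culture 4 gaining and 6 losing inside. With either line alone the BrafV600E counts were 6 to 8 gaining and 2 to 6 losing at ends, and 4 to 9 gaining and 3 to 17 losing inside; long culture gave 4 to 15 gaining and 1 to 7 losing at ends, and 1 to 13 gaining and 10 losing inside. The cause was not tested, except that a single line asks for less than both and 2 tiles for more than 1. Merging tiles into regions kept every share within its interval. The unknown depth limits all values: a difference of 100 points can rest on few reads.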

Other observations

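The outer flanks, from 1 to 2 kb outside the gene, held 3 tiles with 4 listings. Upstream of Col1a2, a tile of chromosome 6 from 4504001 was listed at -23.9 points with BrafV600E in line 1 and 38.7 points with long culture in line 3, and the next tile at 41.1 points with BrafV600E in line 3, per the authors' deposited tables. Upstream of Col16a1 a tile was listed at 58.8 points with BrafV600E in line 3, per the authors' deposited tables.

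The X-linked type IV genes Col4a5 and Col4a6, which lie head to head and are no members under the rule, had only gains. A tile from 141473601 near their starts had 86.7 points with BrafV600E in line 3, a tile from 141475201 had 91.7 points with long culture in line 1, and a tile inside Col4a5 had 100 points with BrafV600E in line 3, per the authors' deposited tables.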
